A study of Mus musculus with 8 samples.

Results

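The genes described here are 10 members of the fibroblast growth factor (FGF) signalling pathway, taken by name from a deposited table of raw counts that lists 55276 gene symbols. They comprise 3 receptors (Fgfr1, Fgfr2 and Fgfr3), the FGF carrier Fgfbp1, 3 Sprouty genes (Spry1, Spry2 and Spry4), the phosphatase gene Dusp6 and the transcription factor genes Etv4 and Etv5. All 10 were in the table, and all 10 passed the filter on low counts. Spry4 and Etv4, with 3 and 8 counts in High Male2, reached the filter's minimum in every library of a fraction only in Low, where they were higher. The libraries are bulk RNA-seq of esophageal epithelial cells from C57BL6 mice aged 14 to 15 weeks, 2 female and 2 male. The epithelial layer was peeled off the muscle and dissociated with dispase and trypsin. Live cells (DAPI negative) with integrin-b1 on the surface were then sorted by Cyto-ID, a dye that marks autophagic vesicles. Each animal gave 1 library of the Cyto-ID Low fraction and 1 of the Cyto-ID High fraction, which leaves 4 libraries in each. Both fractions come from unmodified animals and were gated for integrin-b1, and they differ in dye signal. The protocol calls the sorted cells basal cells, and the labels tag them as squamous cells.

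FGF ligands bind receptor tyrosine kinases on the cell surface with the help of heparan sulfate, and the active receptor passes its signal through docking proteins and Ras to the kinases RAF, MEK and ERK. ERK induces genes that restrain the same signal, among them the Sprouty genes, which act between receptor and RAF, and Dusp6, which dephosphorylates ERK. Etv4 and Etv5 encode Ets transcription factors that FGF signalling commonly induces. In stratified epithelia, Fgfr2 is mainly made as the isoform that responds to ligands from the underlying stroma.

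Of the 10 genes, 6 were lower and 2 higher in Cyto-ID High than in Cyto-ID Low, and 2 did not pass the test. Fgfr1, Fgfr2, Spry2, Spry4, Dusp6 and Etv5 fell, by 1.90-fold for Spry2 to 7.0-fold for Etv5. Fgfbp1 and Spry1 rose, and Fgfr3 and Etv4 did not pass. The test was edgeR's quasi-likelihood test with Benjamini-Hochberg adjustment over all 17344 genes tested, and a gene was called at an adjusted p under 0.05. The fractions differed widely, since 48.7% of all tested genes were called, 23.4% as higher and 25.3% as lower in High. The CPM of the fractions did not overlap for 7 of the 10 genes, against 48.6% of all tested genes. The difference had the same sign in all 4 animals for 10 of 10 genes, against 64.2% of all tested genes. With the animal as a replicate block 53.8% of all tested genes were called, and the same 8 of the 10 genes. The log2 fold changes of the 10 genes had a median of -1.18, and those of all tested genes of -0.09. Spry4 and Etv4 passed the filter through Low, so the counts and the median that include them are a description.

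**Figure D1:**
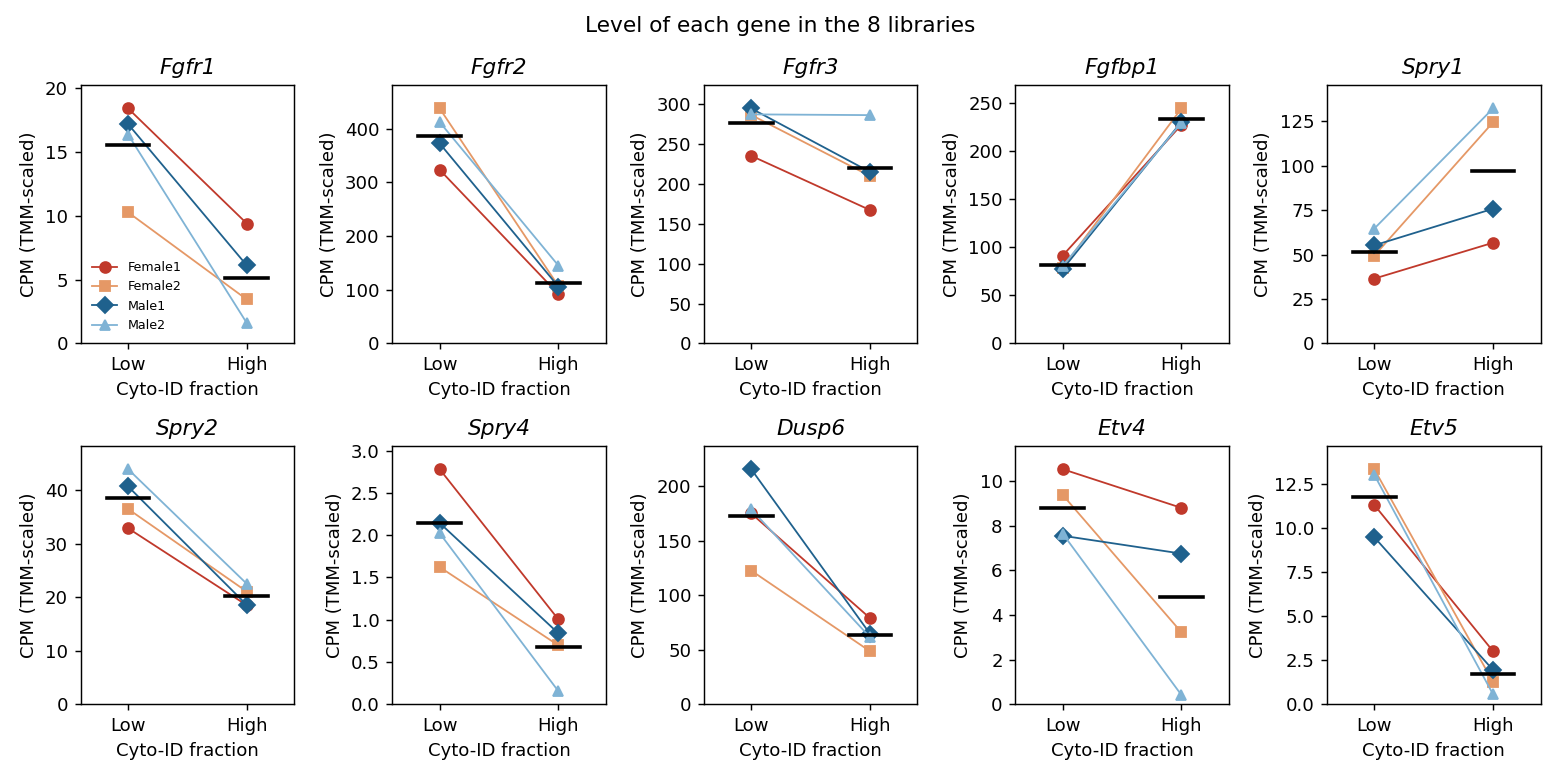
CPM (scaled by TMM, linear axes from 0) of the 10 genes in the Cyto-ID Low and Cyto-ID High library of each of the 4 animals, with a line joining the libraries of an animal and a black bar at the mean of each fraction. Fgfr2 lies between 323 and 438 CPM in Low and between 92.1 and 145 CPM in High, whereas the fractions overlap for Fgfr3, Spry1 and Etv4.

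Total counts were 26285200 to 28600000 in the Low and 27486000 to 29301100 in the High libraries. Values below are CPM, a gene's counts per 1000000 counts of the library, on library sizes adjusted by edgeR's TMM factors (a trimmed mean of log ratios), with factors of 1.16 to 1.30 in Low and 0.679 to 0.944 in High. Scaling by total counts alone moved the median log2 fold change of all tested genes by -0.55. Of the called genes, 48.0% were higher in High with TMM and 20.5% with total counts. The summed level of 11 basal keratinocyte genes, which include Krt5, Krt14 and Trp63, was 22430 to 26768 CPM in Low and 2900 to 4610 CPM in High, and 11 of 11 fell. Among them was Itgb1, which encodes the integrin-b1 used in the gate, at 370 ± 32 CPM in Low and 68.2 ± 18.2 CPM in High (SD, n = 4). The summed level of 12 suprabasal genes, which include Krt4, Krt13 and Lor, was 11137 to 29084 CPM in Low and 151355 to 253919 CPM in High, and 11 of 12 rose. Their part in the results below was not tested. In these bulk samples, fewer cells of a type and less RNA per cell cannot be told apart.

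The High library of Male2 stood apart in markers of cells outside the epithelium. The summed level of 12 fibroblast genes was 413 to 649 CPM in Low, and in High it was highest in Female1 (679 CPM), then Male1 (478), Female2 (222) and Male2 (49.6). None of the 12 was at 0 in High Male2, and Dcn passed the test, as lower. Leukocyte genes summed to 58.9 to 95.7 CPM in Low and to 6.69 to 94.7 CPM in High, with the T cell genes Cd3e and Cd3g at 0 in High Male2. Cd3e was at 0 in High Female2 too, and neither gene exceeded 11 counts in any library. Cd207 passed as lower (log2 fold change -2.24, edgeR adjusted p = 0.00585), on 11 to 53 counts in Low and 3 to 7 in High. It passed the filter on low counts only through Low, so its call is a description. Muscle genes summed to 45.2 to 70.1 CPM in Low and 5.14 to 68.0 CPM in High, with Actg2 and Myh4 at 0 in High Male2. Acta2 passed as lower (log2 fold change -1.54, edgeR adjusted p = 0.0178), a call lost without Low Female1, Low Male1 or Low Male2. Endothelial genes summed to 37.2 to 61.3 CPM in Low and 24.8 to 63.2 CPM in High, with Kdr at 0 in High Male2.

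Fgfr2 lies on the minus strand of chromosome 7 (chr7:130162451-130266808, mouse build GRCm38.p6), and Fgfr3 on the plus strand of chromosome 5 (chr5:33721724-33737068). The 250 bases before the start of each are printed because these genes were the most abundant receptors and differed in their response. Sequences are from RefSeq, build GRCm38.p6, read 5′ to 3′ on the gene's own strand. The Fgfr2 window covers chr7:130266809-130267058 and has 44% G and C. The Fgfr3 window, the first of 2 listed, covers chr5:33721474-33721723 and has 66.8%. The median over all 32851 promoters of the RefSeq table was 52.4%.
Fgfr2: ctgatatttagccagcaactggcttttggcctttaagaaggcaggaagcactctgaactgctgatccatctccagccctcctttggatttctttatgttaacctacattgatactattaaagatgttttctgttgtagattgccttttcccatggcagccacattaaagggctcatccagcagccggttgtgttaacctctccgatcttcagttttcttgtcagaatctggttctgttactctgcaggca
Fgfr3: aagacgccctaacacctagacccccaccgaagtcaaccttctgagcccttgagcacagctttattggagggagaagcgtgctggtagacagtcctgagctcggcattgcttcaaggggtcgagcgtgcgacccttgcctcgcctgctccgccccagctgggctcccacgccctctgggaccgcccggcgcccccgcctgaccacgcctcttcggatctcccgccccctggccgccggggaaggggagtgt

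Fgfr2, the principal epithelial FGF receptor, stood at 323, 438, 372 and 412 CPM in the Low libraries of Female1, Female2, Male1 and Male2. In the High fraction it stood at 92.1, 107, 106 and 145 CPM in the same order. Each Low library was above each High library, and the animals differed little. The mean fell from 386 ± 50 to 113 ± 23 CPM (SD, n = 4), which was 3.46-fold lower in High (log2 fold change -1.79, SE 0.18, edgeR adjusted p = 4.09e-05). The difference within an animal ran from -2.03 in Female2 to -1.51 in Male2 on the log2 scale. The table counts whole genes, so the epithelial and mesenchymal isoforms of Fgfr2 are not separated. Of its exon bases, 3.04% overlap Ctbp2 on the same strand.

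Fgfr3, a receptor that in many stratified epithelia is found above the basal layer as well, stood at 235, 286, 294 and 287 CPM in the Low libraries of Female1, Female2, Male1 and Male2. In High it stood at 167, 210, 215 and 286 CPM. The fractions overlapped, because High Male2 reached the Low level while the other 3 High libraries lay below it. The mean was 275 ± 27 CPM in Low and 219 ± 49 in High (SD, n = 4), and the difference did not pass the test (log2 fold change -0.34, SE 0.16, 95% interval -0.71 to 0.03, edgeR adjusted p = 0.117). With total counts the log2 fold change was -0.92 (adjusted p = 0.000253), and with at least 10 counts required in every library it was -0.37 (adjusted p = 0.0389). Of its exon bases, 13.9% overlap G630022F23Rik on the opposite strand, and whether the counting used strand is not given in the sources used here.

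Fgfr1 (chr8:25518759-25575718), the receptor most used by mesenchymal cells, was the least abundant of the 3 and shares 1.66% of its exon bases with Gm16159 on the opposite strand. It stood at 18.4, 10.3, 17.1 and 16.3 CPM in the Low libraries of Female1, Female2, Male1 and Male2, which rests on 373 to 595 counts. In High it stood at 9.38, 3.44, 6.10 and 1.59 CPM, on 31 to 243 counts. Every High library was below every Low library, and High Male2 was the lowest. The mean fell from 15.5 ± 3.6 to 5.13 ± 3.38 CPM (SD, n = 4), 3.07-fold lower in High (log2 fold change -1.62, SE 0.45, edgeR adjusted p = 0.0134). Without Low Female1 the adjusted p was 0.0591 at a log2 fold change of -1.55. In Female1 and Male1, whose summed fibroblast genes were not lower in High than in Low, the differences were -0.97 and -1.48, and in Female2 and Male2 they were -1.56 and -3.30.

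The receptors did not change in proportion, and their mix can be compared as shares of CPM per kilobase of exon within a library. Fgfr3 made up 49.7 ± 1.8% of the 3 receptors in Low and 72.7 ± 1.6% in High (SD, n = 4). Fgfr2 made up 48.2 ± 2.2% in Low and 26 ± 0.7% in High, and Fgfr1 2.07 ± 0.65% and 1.39 ± 1.1%. With the longest transcript as the length, Fgfr3 made up 41.8 ± 1.7% in Low and 66.0 ± 1.7% in High, so the leading receptor in Low depends on the length used and in High it does not. The log2 ratio of Fgfr3 to Fgfr2, which no library scaling can move, was higher in High by 1.44 ± 0.12 (SD, n = 4) and in 4 of 4 animals. An exact two-sided sign-flip permutation test gave 2 of 16 sign patterns as extreme, the smallest share that 4 animals allow, and an adjusted p of 0.156 over the 5 ratios tested. The ratio of Fgfr1 to Fgfr2 changed by -0.04 ± 1.19 (exact permutation p = 1, n = 4). That ratio was higher in High by 0.33 to 0.85 in Female1, Female2 and Male1 and differed by -1.79 in Male2. Without Male2 the mean change was 0.55.

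**Figure D2:**
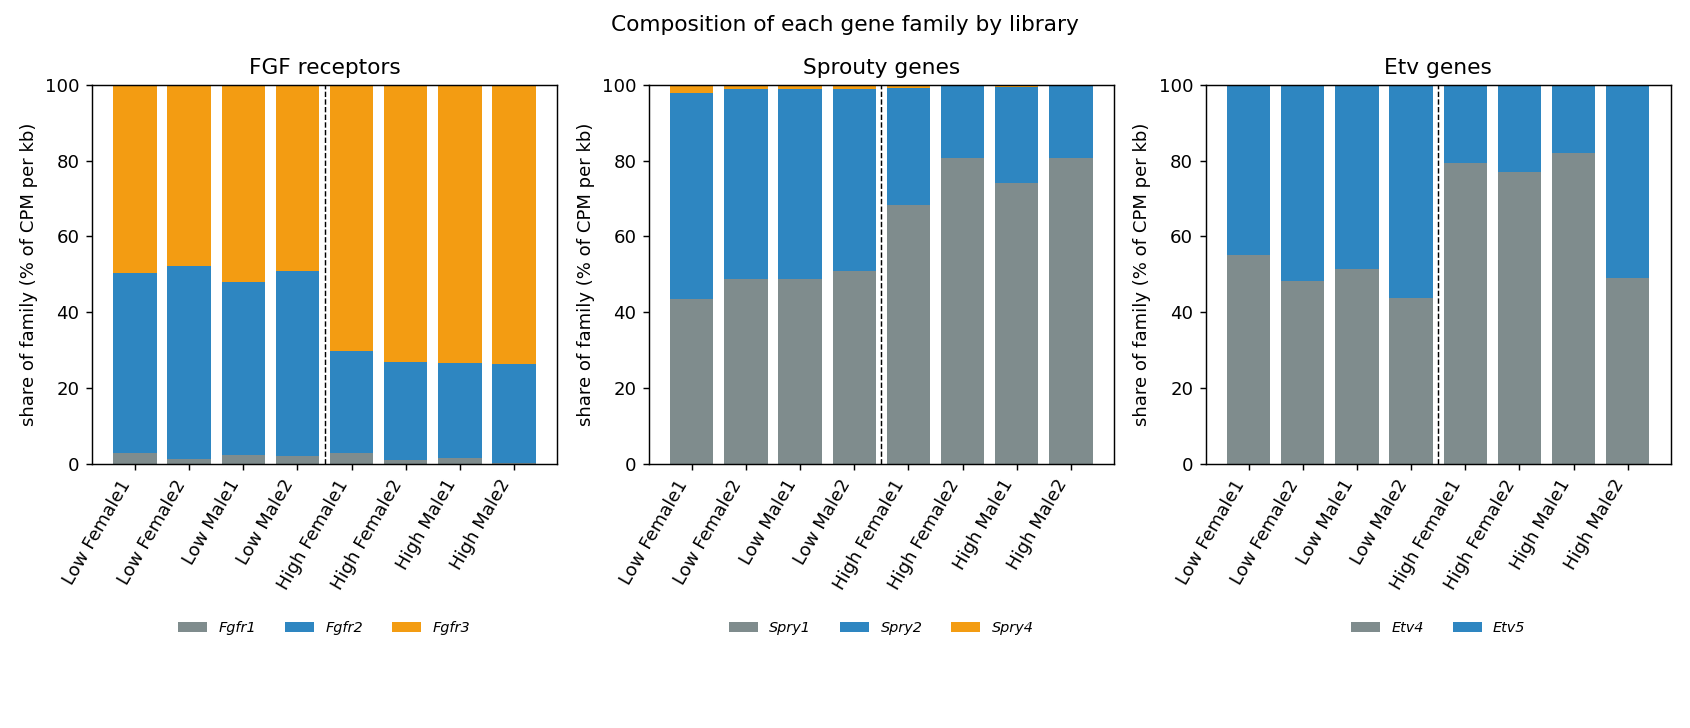
Stacked bars of the share of each gene within the FGF receptors, the Sprouty genes and the Etv genes, as a percent of the summed CPM per kilobase of merged exon, in each of the 8 libraries. Bars left of the dashed line are Cyto-ID Low and bars to its right are High. Fgfr3 averages 49.7% in Low and 72.7% in High, Spry1 48.0% and 76.0%, and High Male2 has the lowest Etv4 share of the High libraries, at 49.0%.

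Fgfbp1 (chr5:43978858-43981828), a secreted protein that releases FGF from heparan sulfate in the matrix, rose. It stood at 91.6, 79.1, 77.4 and 80.9 CPM in the Low libraries of Female1, Female2, Male1 and Male2, and at 228, 245, 231 and 230 CPM in High. Both sets were tight, with a gap between them in every animal. The mean rose from 82.3 ± 6.4 to 233 ± 7.7 CPM (SD, n = 4), 2.84-fold (log2 fold change 1.51, SE 0.13, edgeR adjusted p = 2.14e-05). Scaled by total counts, the log2 fold change was 0.95, and it still passed.

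The Sprouty genes moved in opposite directions. Spry1 lies on the plus strand of chromosome 3 (chr3:37639947-37644599) and Spry2 on the minus strand of chromosome 14 (chr14:105891947-105896819). The 250 bases before their starts (RefSeq, GRCm38.p6) are printed because these were the most abundant Sprouty genes, and because one rose where the other fell. The windows cover chr3:37639697-37639946 and chr14:105896820-105897069, and each has 62.4% G and C.
Spry1: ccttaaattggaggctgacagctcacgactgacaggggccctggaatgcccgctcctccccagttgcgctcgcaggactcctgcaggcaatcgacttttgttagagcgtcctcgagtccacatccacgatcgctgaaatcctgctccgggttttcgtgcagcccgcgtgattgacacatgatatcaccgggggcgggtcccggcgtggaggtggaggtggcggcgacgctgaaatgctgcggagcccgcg
Spry2: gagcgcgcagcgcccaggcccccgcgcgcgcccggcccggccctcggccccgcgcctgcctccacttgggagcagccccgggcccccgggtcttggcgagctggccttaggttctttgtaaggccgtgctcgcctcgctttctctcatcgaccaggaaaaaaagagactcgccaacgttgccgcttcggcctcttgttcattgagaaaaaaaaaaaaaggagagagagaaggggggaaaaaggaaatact

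Spry1, an inhibitor of receptor tyrosine kinase signalling, stood at 36.5, 49.4, 55.2 and 64.7 CPM in the Low libraries of Female1, Female2, Male1 and Male2. In High it stood at 56.7, 124, 75.8 and 132 CPM. It was higher in High within every animal, although High Female1 lay below Low Male2, so the fractions overlapped. The mean rose from 51.5 ± 11.8 to 97.3 ± 36.8 CPM (SD, n = 4), 1.91-fold (log2 fold change 0.93, SE 0.27, edgeR adjusted p = 0.0159). The call depends on the scaling, since total counts gave 0.32 (adjusted p = 0.223), and on 1 library, since without High Female2 it was 0.64 (adjusted p = 0.0546). Of the exon bases of Spry1, 24.4% overlap the antisense gene Gm42922, so reads of the pair cannot be told apart here.

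Spry2, its paralog with the same inhibitory role, stood at 32.9, 36.5, 40.7 and 43.9 CPM in Low and 18.5, 21, 18.5 and 22.5 CPM in High, in the same order of animals. The fractions did not overlap, and the High libraries were close together. The mean fell from 38.5 ± 4.8 to 20.1 ± 2.0 CPM (SD, n = 4), 1.90-fold lower in High (log2 fold change -0.93, SE 0.13, edgeR adjusted p = 0.000328). Scaled by total counts, the log2 fold change was -1.50.

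Spry4 was scarce. It stood at 2.78, 1.62, 2.14 and 2.02 CPM in the Low libraries of Female1, Female2, Male1 and Male2, on 59 to 90 counts. In High it stood at 1.00, 0.70, 0.84 and 0.154 CPM, on 3 to 26 counts. All High libraries were below all Low libraries, and the lowest, Male2, held 3 counts. The mean fell from 2.14 ± 0.48 to 0.673 ± 0.368 CPM (SD, n = 4), 3.19-fold lower in High (log2 fold change -1.67, SE 0.45, edgeR adjusted p = 0.0112). Without both libraries of Female2 the adjusted p was 0.0512 at a log2 fold change of -1.77.

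As a share of Sprouty CPM per kilobase, Spry1 went from 48.0 ± 3.2% in Low to 76.0 ± 6.0% in High and Spry2 from 50.7 ± 2.7% to 23.6 ± 5.7% (SD, n = 4). The log2 ratio of Spry1 to Spry2 was higher in High by 1.79 ± 0.32 and in 4 of 4 animals. The ratio of Spry4 to Spry2 was lower in High in 4 of 4 animals, with a mean change of -0.84 ± 0.96 (SD, n = 4). The change was -2.26 in Male2, whose High library held 3 Spry4 counts, and without Male2 the mean was -0.36. For both, 2 of 16 sign patterns were as extreme, and the exact permutation test gave an adjusted p of 0.156.

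**Figure D3:**
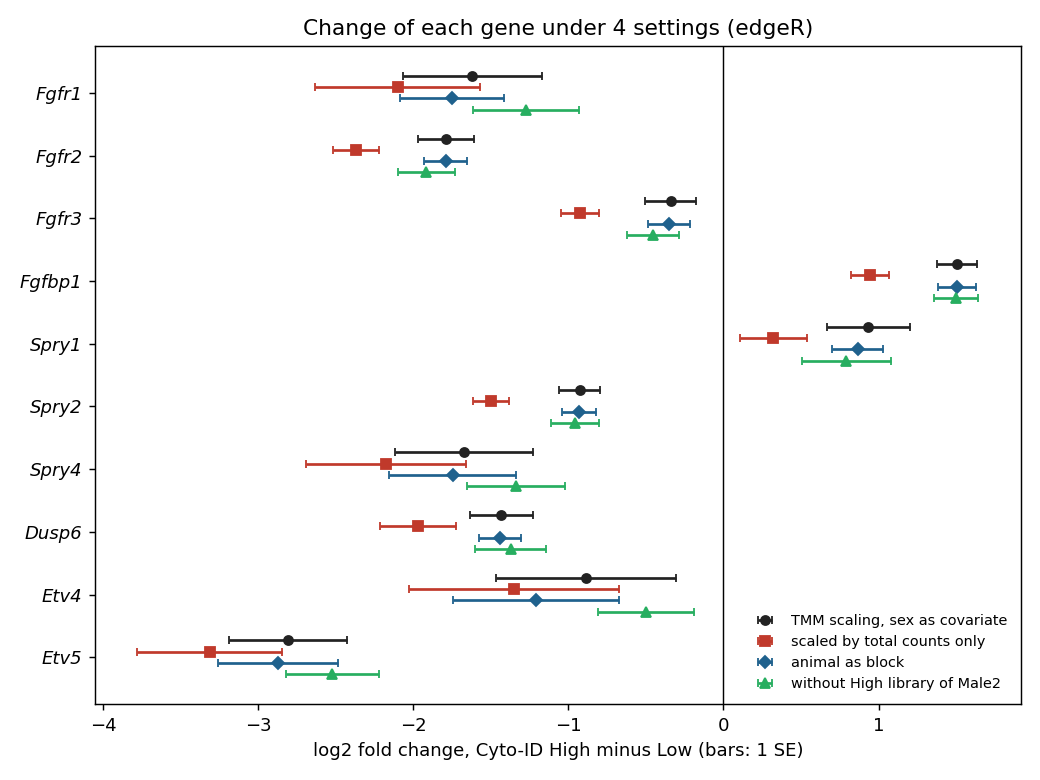
Log2 fold change (Cyto-ID High minus Low) of each of the 10 genes by edgeR under 4 settings, with bars of 1 SE: TMM with sex as covariate (circles), total counts (squares), the animal as a block (diamonds) and without High Male2 (triangles). Each gene stays on 1 side of 0 in the 4 settings, and total counts give the lowest values, with Spry1 at 0.32 and Fgfr3 at -0.92.

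Dusp6 lies on the plus strand of chromosome 10 (chr10:99263231-99267489) and encodes a cytoplasmic phosphatase that removes the activating phosphates of ERK. The 250 bases before its start, chr10:99262981-99263230 with 56.4% G and C (RefSeq, GRCm38.p6), are printed because they held the one motif match among the members' promoters. The capitals mark CTTCCG, the reverse complement of the Ets core CGGAAG, which spans bases 62 to 57 before the start.
Dusp6: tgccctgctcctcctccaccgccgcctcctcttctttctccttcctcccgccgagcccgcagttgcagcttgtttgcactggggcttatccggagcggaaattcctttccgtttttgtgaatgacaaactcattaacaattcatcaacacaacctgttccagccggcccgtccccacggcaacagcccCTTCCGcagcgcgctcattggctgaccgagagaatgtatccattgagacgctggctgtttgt
The RefSeq table held 9 promoters for 7 of the 10 genes. They were searched on both strands for CGGAAG, for the AP-1 site TGANTCA, for TATAAA and for the CArG box bound by serum response factor. Of all 32851 promoters in the table, 13.6% hold CGGAAG, 6.75% TGANTCA, 12.4% TATAAA and 1.47% a CArG box. A match describes these letters only, and no match says nothing of a factor.

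Dusp6 stood at 175, 123, 216 and 179 CPM in the Low libraries of Female1, Female2, Male1 and Male2, and at 79.1, 48.7, 64.8 and 61.6 CPM in High. Female2 was the lowest animal in both fractions, and no High library reached a Low one. The mean fell from 173 ± 38 to 63.5 ± 12.5 CPM (SD, n = 4), 2.7-fold lower in High (log2 fold change -1.43, SE 0.20, edgeR adjusted p = 0.000319).

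Etv5 (chr16:22381313-22439570) changed most among the 10 genes. It stood at 11.3, 13.3, 9.47 and 13 CPM in the Low libraries of Female1, Female2, Male1 and Male2, and at 3.01, 1.26, 1.94 and 0.566 CPM in High, where it rests on 11 to 78 counts. The highest High library, Female1, lay below the lowest Low library, Male1. The mean fell from 11.8 ± 1.8 to 1.70 ± 1.04 CPM (SD, n = 4), 7.0-fold lower in High (log2 fold change -2.81, SE 0.38, edgeR adjusted p = 0.000237). In Female1 and Male1 the differences were -1.88 and -2.24, and in Female2 and Male2 they were -3.33 and -4.36.

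Etv4 (chr11:101769747-101785310), the closest relative of Etv5 in the set, stood at 10.5, 9.38, 7.55 and 7.64 CPM in Low and at 8.80, 3.22, 6.75 and 0.412 CPM in High, in the same order of animals. The High libraries spread widely, from 8 counts in Male2 to 228 in Female1, and overlapped the Low libraries. The mean was 8.77 ± 1.44 CPM in Low and 4.80 ± 3.72 in High (SD, n = 4), and the difference did not pass (log2 fold change -0.89, SE 0.58, 95% interval -2.19 to 0.41, edgeR adjusted p = 0.243). The differences were -0.26 and -0.16 in Female1 and Male1, and -1.52 and -4.00 in Female2 and Male2. Without High Male2 the estimate was -0.50 (adjusted p = 0.224), and it was -1.62 without High Male1 and -1.35 with total counts. With no filter on low counts it was -0.93 and passed (adjusted p = 0.000985).

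The log2 ratio of Etv4 to Etv5 was higher in High by 1.47 ± 0.76 and in 4 of 4 animals (2 of 16 sign patterns as extreme, exact permutation test with adjusted p = 0.156, n = 4). The share of Etv4 in the Etv CPM per kilobase was 49.6 ± 4.9% in Low and 71.9 ± 15.4% in High, with High Male2 at 49.0%.

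The High libraries had the same order for Fgfr1, Spry4, Etv4 and Etv5, with Female1 highest, then Male1, Female2 and Male2. The summed fibroblast, leukocyte, muscle and endothelial genes had that order too, as had the number of genes with a count (27395, 26623, 24820 and 22208) and the TMM factor (0.944, 0.896, 0.792 and 0.679). Within an animal, the median log2 difference of the 12 fibroblast genes was 0.59 in Male1, 0.23 in Female1, -0.84 in Female2 and -3.49 in Male2, and the part of these measures in the genes' values was not tested. On TMM-scaled CPM, Fgfr2, Fgfr3, Spry1 and Spry2 were instead highest in High Male2, the library with the lowest TMM factor. In counts Spry2 was lowest there, with 437 against 479, 483 and 486 in High Female1, Female2 and Male1. Spry1 had 2571 counts in High Male2 and 2859 in High Female2, so the order of Spry1 and Spry2 depends on the scaling. Sex did not alter the difference between fractions detectably. The interaction of sex and fraction passed for 0 of 17344 genes (0%) by edgeR, with 19 below an unadjusted p of 0.05. In the fit blocked by animal it passed for 0, and 38 were below an unadjusted p of 0.05. With sex as covariate the lowest unadjusted p among the 10 genes was 0.312, for Fgfr1. With 2 animals a sex, only large differences could have been found. Without any interaction a share of about 0.05 of the genes would lie below an unadjusted p of 0.05, and both numbers were far lower. These p-values therefore ran high, and they cannot show that sex had no effect.

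**Figure D4:**
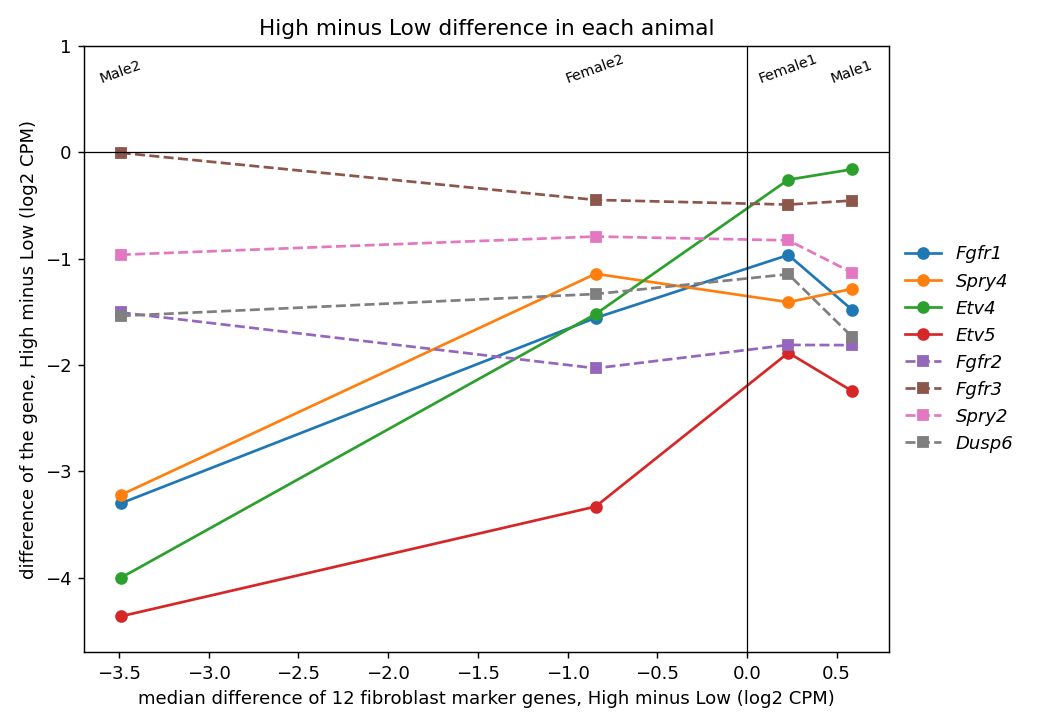
Difference (log2 CPM, Cyto-ID High minus Low) of the 8 genes with negative estimates in each of the 4 animals, against the median difference of the 12 fibroblast genes in that animal, with lines joining the points of a gene. Male2 lies at -3.49 on the horizontal axis and holds the lowest values of Fgfr1 (-3.30), Etv4 (-4.00) and Etv5 (-4.36), while Fgfr2 lies between -2.03 and -1.51 in all 4 animals.

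Per kilobase of merged exon, Dusp6 led in Low at 55.3 ± 12.2 CPM per kilobase. Fgfr3 (38.5 ± 3.8), Fgfr2 (37.4 ± 4.8) and Fgfbp1 (36.3 ± 2.8) followed and did not differ beyond their spread, and the lowest Dusp6 library (39.2) lay within the range of Fgfr3. Spry2 and Spry1 stood at 18.4 ± 2.3 and 17.7 ± 4.1, Etv5 and Etv4 at 2.87 and 2.83, Fgfr1 at 1.57 and Spry4 at 0.450 CPM per kilobase, and the libraries of both pairs overlapped. In High, Fgfbp1 led at 103 CPM per kilobase, ahead of Spry1 at 33.5 ± 12.7 and Fgfr3 at 30.6 ± 6.9, which overlapped. Dusp6 stood at 20.3 ± 4.0, Fgfr2 at 10.9 ± 2.2, Spry2 at 9.65 ± 0.94, Etv4 at 1.54 and Fgfr1 at 0.519 CPM per kilobase. Etv5 (0.413) and Spry4 (0.142) came last. In High the ranges of neighbours overlapped except between Fgfbp1 and Spry1, between Dusp6 and Fgfr2, and between Spry2 and Etv4. With the longest transcript as the length, Fgfr2 led in Low at 87.3 CPM per kilobase and Fgfbp1 still led in High at 107.

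The genes most like each receptor across the 8 libraries were found by Pearson correlation of log2 CPM among 10006 genes with a mean of at least 5 CPM. The libraries form 2 fractions, so a difference between fractions enters these values, which are given as a description. For Fgfr2 these were Tfap2e (r = 0.9997), Clstn1 (r = 0.999) and Dst (r = 0.998), which encodes a linker of hemidesmosomes to keratin. For Fgfr3 they were Tspan9 (r = 0.986), Arhgap39 (r = 0.980) and Ddb1 (r = 0.977). For Fgfr1 they were Rps15a-ps5 (r = 0.992), Gabbr1 (r = 0.990) and Bmp1 (r = 0.989), where the first is a pseudogene whose counts are uncertain.

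The rest of the pathway was described through 8 lists with 96 genes, of which 95 were in the table and 76 were tested. The counts of each list are to be read against the 48.7% of all tested genes that were called, and with total counts against 2194 higher and 8514 lower of 17344. Of the 22 FGF ligands, 8 were tested, 3 rose and 1 fell, with a median log2 fold change of 0.43. That median was -0.09 with total counts, -0.27 without High Female1 and -0.64 without High Male1. The other 14 had at most 18 counts in any library. Fgf1, which binds all FGF receptors, rose from 0.818 ± 0.098 to 1.83 ± 0.13 CPM (SD, n = 4; log2 fold change 1.16, edgeR adjusted p = 0.00465), a call that total counts ended (0.62, adjusted p = 0.0939). Fgf22, an epithelial ligand, was at 0.385 CPM in Low (7 to 22 counts) and 1.90 CPM in High (36 to 59 counts). Fgf11, which acts inside the cell, was at 1.63 and 1.07 CPM (adjusted p = 0.206), and it passed as lower with total counts (-1.09, adjusted p = 0.0467). Fgf2 was at 1.05 and 0.640 CPM (adjusted p = 0.383). The other called ligands, named after their values were seen, were Fgf18, at 0.194 CPM in Low and 0.719 in High, and Fgf16, with 12 to 27 counts in Low and 0 to 1 in High. Fgf16, Fgf18 and Fgf22 passed the filter on low counts only through the fraction where they were higher, so the number called and the median of the ligands are a description and support no direction.

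Of 8 other receptors, co-receptors and carriers, 5 were tested, 2 rose and 3 fell (median -1.33). Fgfbp3, a relative of Fgfbp1, rose from 6.85 ± 0.82 to 20.1 ± 1.6 CPM (log2 fold change 1.55, edgeR adjusted p = 3.19e-05). Flrt2 and Flrt3, membrane proteins that bind FGF receptors, fell from 20.1 to 7.96 CPM and from 19.7 to 7.31 CPM. The call of Flrt3 (edgeR adjusted p = 0.0147) was lost without Low Female1, without Low Male1 or without High Female2, with an adjusted p of up to 0.0672. Fgfrl1, a receptor that lacks the kinase domain and was named after its values were seen, fell from 7.27 ± 1.05 to 1.39 ± 0.44 CPM (log2 fold change -2.39, edgeR adjusted p = 5.56e-05).

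Of 12 heparan sulfate proteoglycans, the cell surface and matrix partners of FGF, 10 were tested, 2 rose and 6 fell (median -1.22). Of those that fell, Gpc2 (adjusted p = 0.0304), named after its values were seen, did not pass without High Male2 (adjusted p = 0.0519), nor without Low Female1, Low Female2, Low Male1 or High Female2 in turn. Sdc1, the main syndecan of epithelia, rose from 512 ± 23 to 1076 ± 116 CPM (log2 fold change 1.07, edgeR adjusted p = 0.000223). Agrn, a basement membrane proteoglycan, fell from 329 ± 27 to 36 ± 9.7 CPM (log2 fold change -3.19, edgeR adjusted p = 1.33e-05). Sdc4 was at 424 and 557 CPM (log2 fold change 0.40, and -0.16 with total counts), with an edgeR adjusted p of 0.0534. It passed with RLE size factors (adjusted p = 0.0221) and in the fit with a replicate block for the animal (adjusted p = 0.0483), and also without Low Male1 or without High Male1. Gpc3, a glypican named after its values were seen, went from 52.4 to 3.34 CPM.

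Downstream of the receptors, 3 of 13 adaptor genes rose and 4 fell (median -0.01), or 53.8% called, near the share of all tested genes. Among those that fell was Frs3, named after its values were seen, with 51 to 83 counts in Low and 3 to 8 in High. It passed the filter on low counts only through Low, so the number called is a description. Of its exon bases, 18.5% overlap other genes. With total counts 3 rose and 9 fell, and without High Male1 the number called was 4. Gab1, a docking protein that recruits PI3K and SHP2, rose from 46.9 ± 8.6 to 193 ± 53 CPM (log2 fold change 2.04, edgeR adjusted p = 7.57e-05). Ptpn11, which encodes SHP2, was at 119 and 145 CPM (adjusted p = 0.158; log2 fold change 0.29, and -0.29 with total counts, which passed at an adjusted p of 0.0394). Crk fell from 150 to 108 CPM (edgeR adjusted p = 0.0241), a call that was lost without High Female1 or without High Male1. Frs2, the main FGF receptor docking protein, also named after its values were seen, was at 40.1 and 39.8 CPM. Its log2 fold change was -0.01 (edgeR adjusted p = 0.953), and -0.58 with total counts, which passed.

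Of 15 genes of the Ras to ERK cascade, 6 rose and 3 fell (median 0.29). With total counts 3 rose and 6 fell (median -0.28). Map2k2, which encodes MEK2, rose from 85.4 ± 7.5 to 209 ± 48 CPM (log2 fold change 1.28, edgeR adjusted p = 0.000202). Mapk3, which encodes ERK1 and was named after its values were seen, rose from 69.0 to 197 CPM. Hras rose from 113 to 190 CPM (log2 fold change 0.75, edgeR adjusted p = 0.00384), a call that total counts ended (0.17, adjusted p = 0.279). Nf1, a Ras inhibitor also named after its values were seen, fell from 25.0 to 5.49 CPM.

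Feedback genes outside the 10 were tested in 11 cases. Of these, 1 rose and 4 fell (median -0.73), or 45.5% called, near the share of all tested genes. With total counts 1 rose and 7 fell. Dusp5, a nuclear ERK phosphatase, rose from 55.7 ± 9.3 to 265 ± 79 CPM (log2 fold change 2.26, edgeR adjusted p = 4.57e-05), whereas its cytoplasmic relative Dusp6 fell. Dusp7, which belongs to the same cytoplasmic class as Dusp6, was at 289 ± 100 and 388 ± 135 CPM (adjusted p = 0.15; log2 fold change 0.44, and -0.15 with total counts). Errfi1, an inhibitor of the EGF receptor, was at 309 and 197 CPM (adjusted p = 0.0765), and it passed as lower with total counts (-1.20, adjusted p = 0.00184) and without Low Female2. The genes that fell, named after their values were seen, were the Sprouty relatives Spred1 (46.6 to 14.3 CPM) and Spred2 (114 to 9.60 CPM), Lrig1 (153 to 47.2 CPM) and Dusp9 (1.26 to 0.359 CPM). Dusp9 had 29 to 57 counts in Low and 2 to 16 in High. It passed the filter on low counts only through Low, so the number called and the median of this list are a description.

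**Figure D5:**
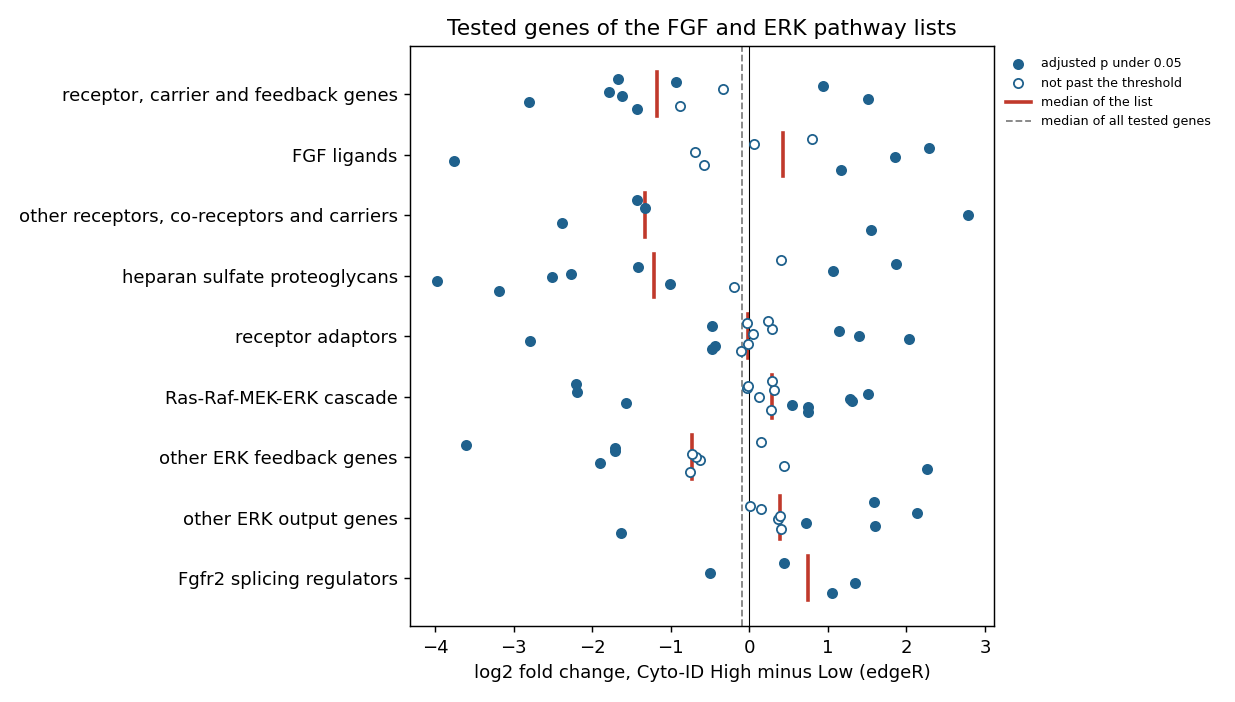
Log2 fold change (Cyto-ID High minus Low) of the 10 genes (top row) and of every tested gene of the 8 pathway lists, 1 point a gene, filled where the adjusted p was under 0.05 and open otherwise. Red bars are the medians of the rows and the dashed line is the median of all tested genes (-0.09), and each row holds points on both sides of 0.

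Of 10 other genes that ERK commonly induces, 4 rose and 1 fell (median 0.40), or 50% called, near the share of all tested genes. With total counts the median was -0.21, and without High Male2 it was 0.13 and 3 rose. The immediate early genes Fos and Egr1 were at 1967 ± 546 and 1107 ± 231 CPM in Low and at 2551 ± 1137 and 1460 ± 594 CPM in High, with edgeR adjusted p of 0.42 and 0.293. Their log2 fold changes were 0.37 and 0.40, and -0.26 and -0.22 with total counts. They respond to tissue dissociation too. The summed level of 14 such genes, which include Fos and Egr1 themselves, was 17737 to 22598 CPM in Low and 13074 to 28663 CPM in High. Epha2, an ephrin receptor, rose from 242 ± 73 to 738 ± 271 CPM (log2 fold change 1.59, edgeR adjusted p = 0.000899). Hbegf, an EGF receptor ligand, rose from 159 to 693 CPM and the cyclin gene Ccnd1 fell from 163 to 52.3 CPM, both named after their values were seen.

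The choice between the epithelial and mesenchymal isoforms of Fgfr2 is set by splicing factors, and of 4 such genes 3 rose and 1 fell (median 0.75, and 0.17 with total counts). Esrp1 rose from 334 ± 30 to 697 ± 136 CPM (log2 fold change 1.06, edgeR adjusted p = 0.000944). Esrp2 rose from 121 ± 5 to 311 ± 80 CPM (log2 fold change 1.35, edgeR adjusted p = 0.000311). Both promote the epithelial isoform. Ptbp1, a repressor of the epithelial exon, fell from 387 ± 50 to 273 ± 68 CPM (edgeR adjusted p = 0.0433), with overlapping fractions. That call was lost with RLE size factors (adjusted p = 0.0663) and when Low Female2, Low Male2, High Female1 or High Male1 was left out. Exons of some of the genes named in these lists overlap a gene on the opposite strand, by 23.4% for Ccnd1, 22.1% for Dusp5 and 20.7% for Ptbp1, so their counts are uncertain. Exons of Fgf2 overlap Nudt6 on the opposite strand and Gm43439 on the same strand, by 13.2% in all, and those of Gpc2 overlap Gm43720 on the same strand by 55.6%, so its counts are uncertain under any strand setting. The overlap was 7.79% for Esrp2, 5.23% for Gab1 and 3.65% for Fgf22, and lower for Lrig1 and Esrp1.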

How the data were processed

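The authors deposited raw counts per gene for 8 libraries in 1 table, whose values are whole numbers with unequal totals. STAR 2.7.3, DESeq2 and the build GRCm38 are named in the submitters' processing notes, without roles. The counting tool, annotation and strandedness are not given in the sources used here. No molecular identifiers are mentioned, so precision covers reads.

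Counts were fitted in R 4.3.3 with edgeR 4.0.16 (filterByExpr by fraction, TMM, glmQLFit and glmQLFTest, sex as covariate, all 8 libraries), with Benjamini-Hochberg adjustment over all 17344 tested genes and a threshold of 0.05. Differences within an animal use log2 CPM with a prior count of 2. Same-named libraries were paired because the titles name the animal. Their deviations from the fraction means correlated at 0.43 (Female1), 0.32 (Female2), -0.02 (Male1) and 0.28 (Male2) across genes, against -0.37 to 0.35 between different animals, so 3 of the 4 pairs lie within that range and the pairing rests on the titles. Lengths and exon overlaps are from GENCODE M21. Ratios were tested by exact sign-flip permutation over animals. The fit was also run on simulated counts with few changed genes and no effect of the animal. These data differ from that setting, so the run does not assess the calls given here.

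The 10 genes and the lists were chosen with earlier results of these data known. Named genes are the 10 members, the 3 tested genes of each list with the highest mean CPM, FGF ligands with a mean of at least 1 CPM in either fraction, and the 3 genes most correlated with each receptor, without Gm-numbered and Rik names. One gene that this rule names is not reported here. Other pathway genes are marked as named after their values were seen, and marker genes of cell types are named outside this rule. Alternatives were RLE size factors, total counts, DESeq2 1.42.0, limma-voom (limma 3.58.1), robust dispersion, no filter, a filter of at least 10 counts in each library, the animal as a replicate block, no covariate, and each library left out. Leaving out both libraries of an animal was added after seeing the data.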

Additional observations from a re-analysis of the deposited data

Results flagged for a closer look

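Within the Low fraction, 1 of the 4 libraries lay far from the others for Fgfr3. Female1 was at 235 CPM, and the other 3 at 286 to 294 CPM. The gap to the nearest library was 0.862 of the whole range, above Dixon's 95% critical value for 4 samples. Of the 20 sets of 4 libraries examined (10 genes in 2 fractions) this was the only 1, and chance singles out about 1 in 20. Without Low Female1, Fgfr3 did not pass the test, as in the fit over all libraries.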

How the results depend on the processing

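Fgfr2, Fgfbp1, Spry2, Dusp6 and Etv5 kept their direction and their call under all 21 alternatives. With total counts in place of TMM, 2194 genes were higher and 8514 lower in High, 1 of the 10 genes was higher, Fgfr3 passed at -0.92, and Spry1 at 0.32 did not pass. With no filter on low counts Etv4 passed at -0.93. With at least 10 counts in every library Fgfr3 passed at -0.37, while Spry4 and Etv4 were left out and have no value. With single libraries left out, Fgfr1 ran from -2.08 to -1.27, Spry1 from 0.64 to 1.11, and the number of the 10 genes higher in High from 1 to 2. With single animals left out, the change of the Fgfr1 to Fgfr2 ratio ran from -0.33 to 0.55, a reversal without Male2. Without both libraries of Female2, Spry4 at -1.77 did not pass. The causes of these changes were not tested. With the animal as a replicate block, 9336 genes were called, 8393 of them shared with the 8440 of the fit with sex as covariate, and no call among the 10 genes changed, nor among the other genes named with a test, except Sdc4. Depth limits Spry4, Etv4 and Etv5 most, with as few as 3, 8 and 11 counts in High Male2.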
